A study of Homo sapiens with 10 samples.

Results

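SALL and POU proteins are transcription factors that recur in the development of the neural plate, the kidney and the limb, and several of them are also active in pluripotent cells. The 8 genes described here are SALL1, SALL2, SALL3, POU3F1, POU3F2, POU3F3, POU2F1 and POU6F1, taken from the 55841 gene identifiers of the count table by matching each symbol to its Ensembl identifier. The libraries came from human embryonic stem cells, of a line labelled HES9, grown without feeder cells in mTESR1 on matrigel. The general population was the whole unsorted culture. The HHH fraction was sorted from the cultures for the highest surface levels of EPCAM, GCTM2 and CD9, and the study treats it as the self-renewing subset. Batch 1 held 2 general and 2 HHH libraries and batch 2 held 3 of each, all of the same line with no genetic change named. The study's text gives the line as WA09 and the design text mentions an inhibitor of protein kinase C, which no label carries, so neither the name of the line nor any such treatment is resolved here.

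SALL proteins carry pairs of zinc fingers along their length, and the SALL family binds the NuRD complex, a chromatin remodeller with histone deacetylase activity. POU proteins bind DNA through a POU-specific domain and a homeodomain, and the octamer is their best-known recognition sequence. POU class III factors such as POU3F1 (OCT6) and POU3F2 (BRN2) act with SOX proteins in neural progenitors, and POU3F1 is also a gene of the post-implantation epiblast in the mouse.

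Totals ran from 47242595 to 78503395 counts per library, and a floor of detection of 3 counts came to 0.0460 to 0.0687 CPM, that is, counts per TMM-scaled library size. All 9 markers of pluripotent cells were over this floor in every library, with summed levels of 4261 to 5414 CPM. EPCAM, whose protein was used for the sort, was at 161 to 178 CPM in the 3 HHH libraries of batch 2 and at 117 to 130 CPM in the 3 general ones, and in batch 1 at 213 and 262 against 171 and 203 CPM. CD9 was at 71.3 to 89.3 against 51.7 to 57.9 CPM in batch 2, whereas in batch 1 the HHH libraries (79.1 and 99.2 CPM) overlapped the general ones (85.6 and 105 CPM). Transcripts of small and mitochondrial genes took 3.04% to 5.20% of the counts in batch 1 and 0.825% to 1.04% in batch 2. The libraries carry replicate numbers, but no label says that they came from separate cultures, so p-values measure the spread between these libraries only. In bulk RNA a lower level can come from fewer cells that express a gene or from less RNA per cell, and these cannot be told apart.

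The members were expressed over a wide range, which is compared here as RPKM (CPM per kilobase of merged exons). SALL2 was highest, at 43.4 to 62.4 RPKM, and its lowest library was above every library of the others. POU2F1 (6.19 to 7.80 RPKM), SALL1 (3.70 to 10.6 RPKM), POU3F1 (3.18 to 8.54 RPKM) and SALL3 (1.19 to 4.43 RPKM) followed, and each of these overlapped its neighbour in this order. POU6F1 lay below them at 0.382 to 0.938 RPKM. POU3F2 reached 0.0389 to 0.0972 RPKM, on 9 to 31 counts per library. POU3F3 had 0 counts in 3 libraries and at most 5 in the others. For scale, SALL4 and POU5F1 (OCT4), the relatives of these genes that are established regulators of pluripotency, were at 33.6 to 49.2 RPKM and 161 to 223 RPKM. The plot of levels by library shows all 8 genes.

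**Figure D1:**
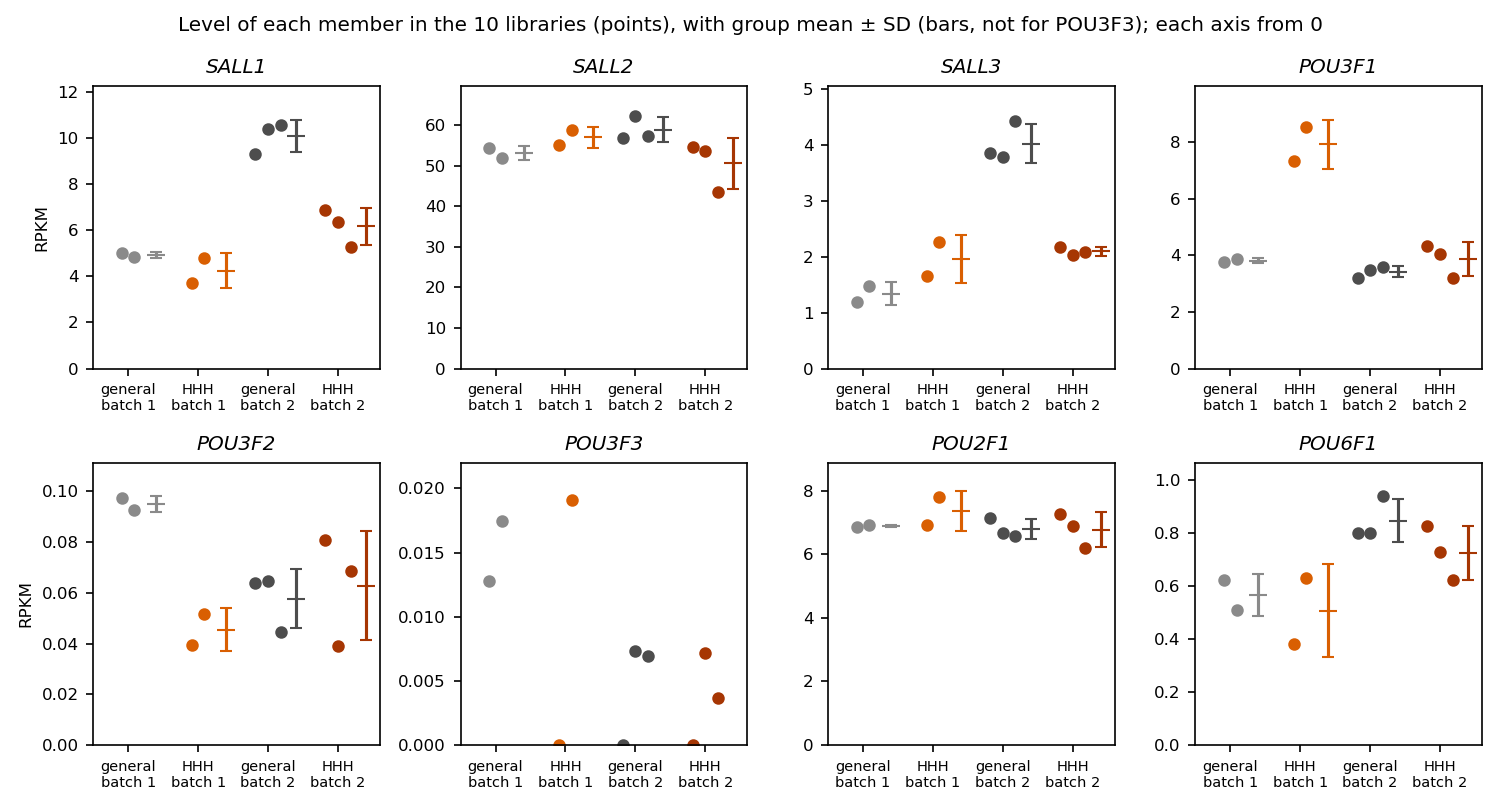
RPKM of each member (vertical axis, from 0, a scale of its own per gene) in the general and HHH libraries of both batches; points are libraries and bars are group mean ± SD, left out for POU3F3. SALL3 in general batch 2 (3.78 to 4.43 RPKM) and POU3F1 in HHH batch 1 (7.32 and 8.54 RPKM) stand above their other groups.

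HHH was compared with general over both batches with batch as a term, within each batch, and for a difference between the batches (the change in batch 2 minus the change in batch 1). Each comparison used the two-sided quasi-likelihood F test of edgeR. P-values were adjusted by Benjamini and Hochberg's method across the 23552 genes tested, and a gene passed at an adjusted p under 0.05. Of the 8 members 7 passed the filter on low counts, and POU3F3 did not. Over both batches 2 of the 7 passed, POU3F1 higher and SALL1 lower in HHH, where 5.83% of all tested genes passed (1.94% higher and 3.89% lower). Within batch 1 only POU3F1 passed, higher in HHH, where 2.14% of all tested genes passed (1.12% higher and 1.02% lower). Within batch 2 SALL1 and SALL3 passed, both lower in HHH, where 9.47% of all tested genes passed (3.83% higher and 5.65% lower). The change of SALL3 and that of POU3F1 differed between the batches, both more negative in batch 2, where 0.777% of all tested genes passed (0.722% more negative and 0.0552% more positive). The median log2 fold change of the 7 was -0.20 over both batches, 0.10 in batch 1 and -0.22 in batch 2, beside 0.02, 0.01 and 0.00 for all tested genes.

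**Figure D2:**
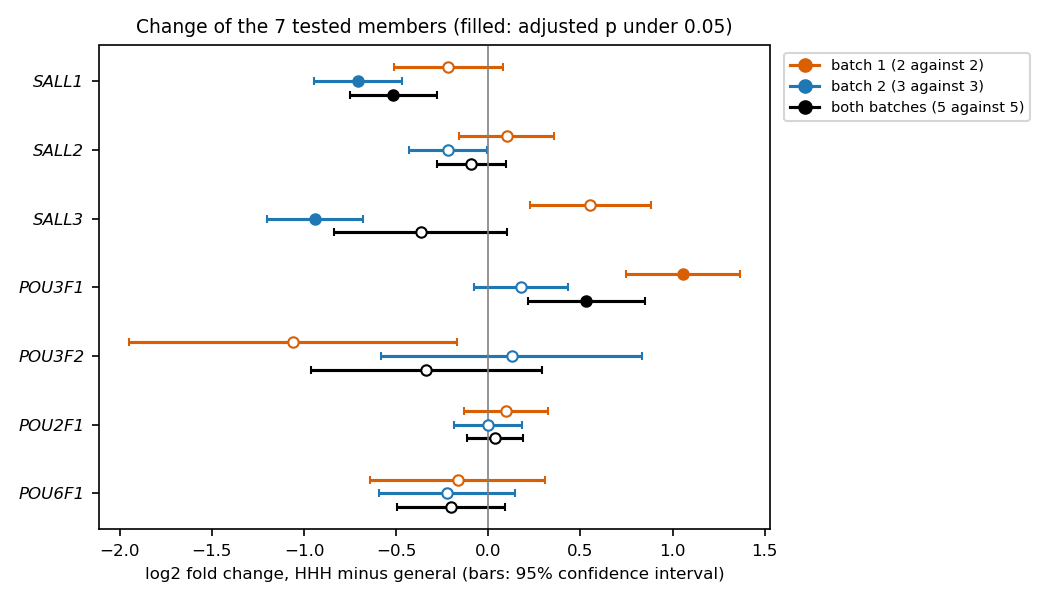
Log2 fold change (horizontal axis, HHH minus general) of the 7 tested members in batch 1, in batch 2 and over both, with 95% confidence intervals; filled points passed at an adjusted p under 0.05. SALL3 lies above 0 in batch 1 and below 0 in batch 2, and SALL1 lies below 0 in both.

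SALL1, a zinc finger factor of kidney and neural progenitors that is mutated in Townes-Brocks syndrome, was lower in HHH. In batch 2 the general libraries had 58.5, 65.5 and 66.6 CPM and the HHH libraries 43.3, 40.1 and 33.3 CPM. In batch 1 it had 31.6 and 30.5 CPM in the general population and 23.3 and 30.1 CPM in HHH. Every HHH library was below every general library of its batch, as 9.35% of all tested genes were separated in 1 direction in both batches, and every library of batch 2 was above every library of batch 1. The log2 fold change was -0.71 ± 0.11 (SE) in batch 2 (edgeR adjusted p = 0.00144), a level 1.63-fold lower in HHH. It was -0.22 ± 0.14 in batch 1, which did not pass (edgeR adjusted p = 0.461, 95% interval -0.51 to 0.08). Over both batches it was -0.51 ± 0.11 (edgeR adjusted p = 0.0115), and it passed in each of the 10 fits that left out 1 library, with a highest adjusted p of 0.0425. Whether the fall in batch 2 exceeded that in batch 1 did not pass (difference -0.49 ± 0.18, edgeR adjusted p = 0.175).

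SALL3, which interacts with a DNA methyltransferase and is known from limb and neural development, changed in opposite directions in the batches. In batch 2 it had 26.4, 25.9 and 30.3 CPM in the general libraries and 14.9, 13.9 and 14.2 CPM in HHH. In batch 1 the general libraries had 8.14 and 10.1 CPM and the HHH libraries 11.3 and 15.5 CPM. The groups did not overlap in either batch, with HHH below general in batch 2 and above it in batch 1, and 6.58% of all tested genes were separated in opposite directions in this way. The HHH libraries of both batches lay within 11.3 to 15.5 CPM, while the general libraries ran from 8.14 to 30.3 CPM. The log2 fold change was -0.94 ± 0.12 in batch 2 (edgeR adjusted p = 2.57e-04), a level 1.92-fold lower in HHH. In batch 1 it was 0.55 ± 0.15, which did not pass (edgeR adjusted p = 0.0815). Its value there ran from 0.31 to 0.76 over the 10 fits without 1 library. It was 0.72 without general replicate 2 and 0.76 without HHH replicate 2 of batch 1, which each leave 1 library in a group. With the replicate block its value in batch 1 was 0.16 ± 0.17, on the 1 pair of libraries there that share a number. The difference between the batches was -1.50 ± 0.20 (edgeR adjusted p = 0.00403), and it passed in all 10 fits without 1 library and under all 8 other settings, with values from -1.70 to -0.90. Over both batches the log2 fold change was -0.37 ± 0.22 (edgeR adjusted p = 0.362), and with the replicate numbers as a block it was -0.68 ± 0.17 and passed (edgeR adjusted p = 0.0341).

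POU3F1, a class III factor of the post-implantation epiblast and of neural and Schwann cell precursors, was higher in HHH in batch 1. There it had 21.7 and 25.3 CPM in HHH, against 11.2 and 11.5 CPM in the general population. In batch 2 it had 12.9, 12.02 and 9.44 CPM in HHH and 9.46, 10.3 and 10.6 CPM in general. The 2 HHH libraries of batch 1 were above all 8 others, and in batch 2 the populations overlapped. Within batch 1 43.5% of all tested genes were separated in either direction, and the share above all 8 others was not counted. The log2 fold change was 1.05 ± 0.14 in batch 1 (edgeR adjusted p = 0.00138), a level 2.08-fold higher in HHH, and it passed in all 10 fits without 1 library. In batch 2 it was 0.18 ± 0.12 (edgeR adjusted p = 0.360, 95% interval -0.08 to 0.43). The difference between the batches was -0.88 ± 0.19 (edgeR adjusted p = 0.0456), but it passed in only 1 of the 10 fits without 1 library, that without HHH replicate 2 of batch 1 (edgeR adjusted p = 0.0374). Over both batches the value of 0.53 ± 0.15 (edgeR adjusted p = 0.0497) passed without HHH replicate 3 of batch 2 (edgeR adjusted p = 0.0116) and in none of the other 9 such fits. With the replicate block neither passed, at 0.36 over both batches (edgeR adjusted p = 0.158) and -0.75 between the batches (edgeR adjusted p = 0.177).

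SALL3 and POU3F1 are GC-rich genes, with exons of 62.0% and 63.1% G and C, at the 92.0th and 94.0th percentile of the tested genes. The values of both genes were also computed after a correction for GC content, which used the longest transcript of each gene. Their transcription start windows in RefSeq (GRCh38.p14, 250 bases before to 50 after the start) had no part in that correction. They are printed as a description of the letters. In capitals are the CG dinucleotides, of which SALL3 has 59 and POU3F1 49 per window, at the 99.9th and 98.7th percentile of 35116 windows with a median of 14. Both are written 5′ to 3′ on the strand of the gene, at chr18:78979568-78979867 (plus strand) for SALL3 and chr1:38046744-38047043 (minus strand) for POU3F1.
SALL3: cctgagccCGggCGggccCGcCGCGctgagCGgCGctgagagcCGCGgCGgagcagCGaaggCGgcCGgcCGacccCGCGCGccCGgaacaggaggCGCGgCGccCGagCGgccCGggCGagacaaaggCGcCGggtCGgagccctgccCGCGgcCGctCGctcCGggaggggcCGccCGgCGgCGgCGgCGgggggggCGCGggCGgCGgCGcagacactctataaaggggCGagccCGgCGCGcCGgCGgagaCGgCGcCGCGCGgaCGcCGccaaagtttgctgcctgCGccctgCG
POU3F1: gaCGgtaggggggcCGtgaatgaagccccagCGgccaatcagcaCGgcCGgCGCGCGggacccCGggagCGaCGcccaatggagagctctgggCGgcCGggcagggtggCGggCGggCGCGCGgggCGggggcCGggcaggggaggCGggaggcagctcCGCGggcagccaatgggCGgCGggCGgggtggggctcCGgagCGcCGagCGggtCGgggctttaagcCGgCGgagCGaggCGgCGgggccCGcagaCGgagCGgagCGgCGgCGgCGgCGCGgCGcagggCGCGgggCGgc
With the trend of counts on GC content removed from each library, the difference between the batches was -1.23 ± 0.17 for SALL3, which passed (edgeR adjusted p = 0.0148), and -0.57 ± 0.16 for POU3F1, which did not (edgeR adjusted p = 0.225). POU3F1 did not pass under 5 of the 8 other settings in all, this one included. With that trend removed POU3F1 passed in batch 2 as well (0.36 ± 0.10, edgeR adjusted p = 0.0476). Of all tested genes 17 passed for the difference between the batches after this correction, where 183 did before. The plot of settings gives each value.

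**Figure D3:**
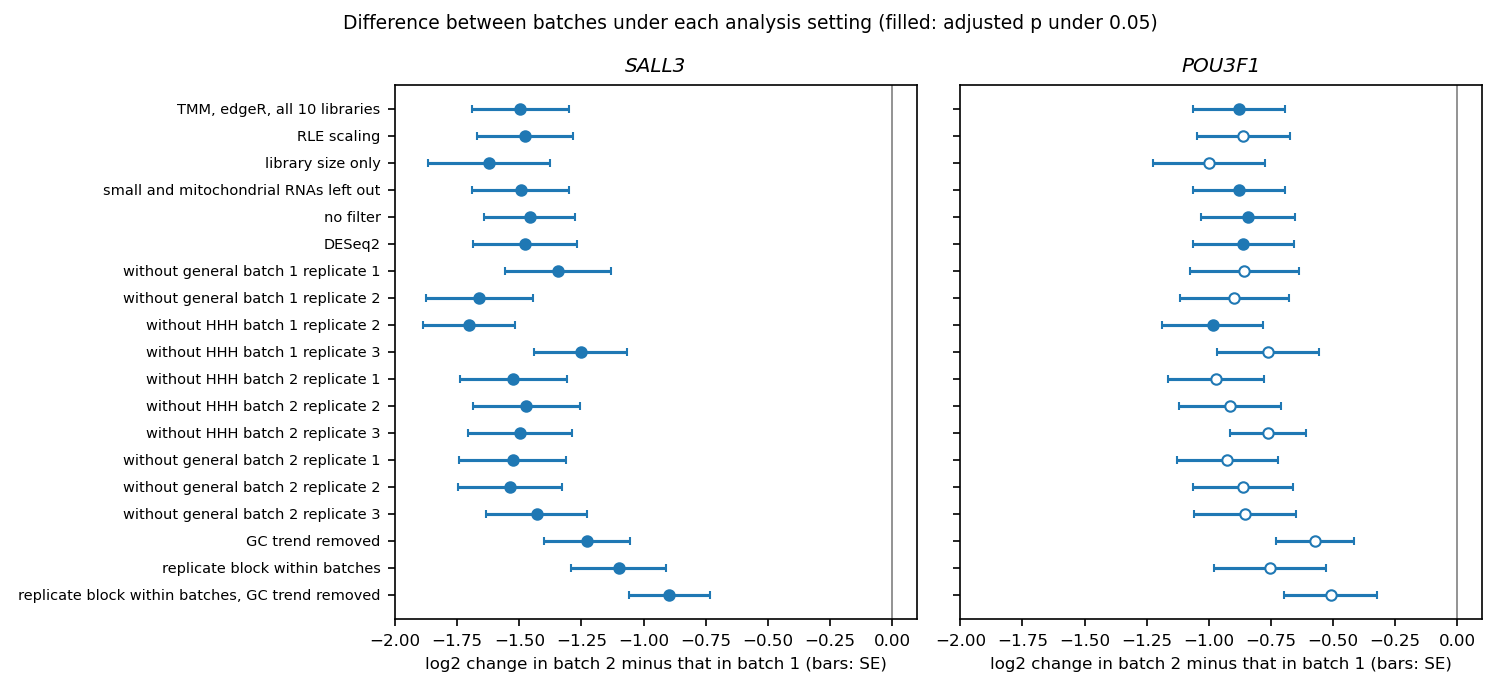
Difference between the batches (horizontal axis, log2 change in batch 2 minus that in batch 1, with SE) of SALL3 and POU3F1 under each analysis setting (vertical axis); filled points passed at an adjusted p under 0.05. All points of SALL3 are filled, from -1.70 to -0.90, and 5 of the 19 of POU3F1 are.

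Markers of other cell types also differed between the populations, not always in the direction of the members. The 10 neural markers summed to 145 to 203 CPM in HHH and 293 to 342 CPM in general in batch 2, where SALL1 and SALL3 were lower in HHH. Of the 6 tested ones 5 passed there, all lower, beside 9.47% of all tested genes (5.65% lower). In batch 1 the sums overlapped, at 237 to 259 CPM in HHH and 237 to 263 CPM in general, most of it from NES, with a mean of 236 CPM in HHH and 202 CPM in general. The tested neural markers had a median log2 fold change of -1.25 in batch 1 and -2.04 in batch 2. In batch 1 5 of the 6 were lower in sign, beside 48.9% of all tested genes. Of these 2 passed, beside 2.14% of all tested genes (1.02% lower). In batch 1 FEZF1, a forebrain factor, had 258 and 364 counts in HHH and 2975 and 2285 in general. LHX5 had 3 and 16 against 337 and 167 counts there, and ZIC1 4 and 5 against 29 and 21. SIX3 was at 0 counts in both HHH libraries of batch 1, and SOX1 had 5 to 33 counts in every library of the series. FEZF2 had 145 and 228 counts in the HHH libraries of batch 1 and at most 2 elsewhere. The 5 neural crest markers summed to 22.1 to 23.6 CPM in HHH and 12.9 to 14.7 CPM in general in batch 1, where POU3F1 was higher in HHH. Nearly all of this came from FOXD3, which pluripotent cells express too. Of the 3 tested ones 1 passed there, higher in HHH, beside 2.14% of all tested genes (1.12% higher). In batch 2 these sums overlapped at 12.4 to 13.5 and 12.7 to 13.3 CPM. The 6 mesoderm markers summed to 2.02 to 2.33 CPM in HHH and 3.00 to 3.23 CPM in general in batch 2 and overlapped in batch 1. The 5 endoderm markers summed to 1.58 to 1.76 CPM in HHH and 0.199 to 0.956 CPM in general in batch 1, where POU3F1 was higher in HHH, with FOXA2 leading at 78 and 60 against 7 and 54 counts. In batch 2 these sums overlapped at 0.0354 to 0.258 CPM in HHH and 0.0834 to 0.139 CPM in general. The 5 fibroblast markers summed to 77.9 to 100.1 CPM in HHH and 133 to 138 CPM in general in batch 2, all but a few counts from COL1A1 and COL1A2, while DCN was at 0 counts in 9 libraries. Of the 9 pluripotent markers, EPCAM and CD9 included, 4 passed in batch 2, all higher in HHH, beside 9.47% of all tested genes (3.83% higher). By sign 6 were higher and 3 lower there. Over both batches 2 passed higher and 1 lower, beside 5.83% of all tested genes. The part of any of these cell types in the changes of the members was not tested.

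The other 4 tested members did not pass in any comparison. SALL2, a regulator of cell proliferation, had 294, 289 and 234 CPM in HHH and 306, 336 and 308 CPM in general in batch 2, so that every HHH library was lower (36.2% of all tested genes were separated in batch 2 in either direction). In batch 1 it had 297 and 317 CPM in HHH and 293 and 280 CPM in general, so that every HHH library was higher (43.5% of all tested genes were separated in batch 1 in either direction, and 6.58% in opposite directions in the batches). Its log2 fold change was -0.22 ± 0.10 in batch 2 (edgeR adjusted p = 0.168) and 0.10 ± 0.12 in batch 1 (edgeR adjusted p = 0.721). The difference between the batches did not pass (-0.32 ± 0.16, edgeR adjusted p = 0.284). A long noncoding gene on the opposite strand covers 8.77% of the exon bases of SALL2, and without a stated strand setting reads of the pair cannot be told apart.

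POU2F1 (OCT1), a widely expressed factor of which 4.89% of the exon bases are shared with another gene, varied least among the members relative to its level. It had 111 and 125 CPM in HHH and 110 and 111 CPM in general in batch 1, and 116, 110 and 99.3 CPM in HHH and 115, 107 and 105 CPM in general in batch 2. The log2 fold change over both batches was 0.04 ± 0.07, with a 95% interval of -0.11 to 0.19 (edgeR adjusted p = 0.811). POU6F1, expressed mainly in brain, had 2.44 and 4.03 CPM in HHH and 3.98 and 3.25 CPM in general in batch 1, and 5.29, 4.65 and 3.98 against 5.12, 5.13 and 6.003 CPM in batch 2. Its populations overlapped in both batches, and the log2 fold change over both was -0.20 ± 0.14 with a 95% interval of -0.49 to 0.09 (edgeR adjusted p = 0.431).

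POU3F2 had 9 and 11 counts in HHH and 31 and 27 in general in batch 1, and 23, 11 and 19 against 18, 18 and 13 in batch 2. HHH was lower in batch 1 without overlap, as 43.5% of all tested genes were separated there in either direction, and the populations overlapped in batch 2. The log2 fold change of -1.06 ± 0.42 in batch 1 did not pass (edgeR adjusted p = 0.209), and its 95% interval from -1.95 to -0.17 shows how little these counts can resolve. POU3F3, a class III factor of forebrain and kidney, had 4 and 5 counts in general batch 1 and 0 and 4 in HHH batch 1. In batch 2 it had 0, 2 and 2 counts in general and 0, 2 and 1 in HHH. A difference was not detectable at this depth.

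Of 10 RefSeq start windows held by 7 of the members (SALL1 is named only), 1 has the octamer ATGCAAAT or its reverse complement ATTTGCAT, beside 1.77% of all 35116 windows. It is a window of POU2F1 within the gene, at chr1:167328820-167329119 (GRCh38.p14, plus strand), and it is shown because the letters are those bound by the encoded family; the octamer is in capitals and starts at base 72.
POU2F1: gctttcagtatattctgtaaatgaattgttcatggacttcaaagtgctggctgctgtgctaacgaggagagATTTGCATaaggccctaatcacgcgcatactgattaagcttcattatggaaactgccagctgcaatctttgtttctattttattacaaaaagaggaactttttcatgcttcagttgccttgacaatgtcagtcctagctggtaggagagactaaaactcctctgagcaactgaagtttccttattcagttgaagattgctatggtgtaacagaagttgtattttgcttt
The match is a description of the letters, and the other 9 windows hold none.

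The members were compared in how they varied from library to library. Over the 10 libraries, as deviations of log2 CPM from the mean of the batch, Pearson's r was 0.77 between SALL1 and SALL2, 0.73 between SALL1 and SALL3 and 0.67 between SALL2 and SALL3. It was 0.72 between SALL1 and POU6F1, 0.58 between POU3F1 and POU2F1, 0.55 between SALL2 and POU2F1 and 0.54 between SALL2 and POU6F1, so that high values were not limited to pairs of SALL genes. POU3F1 and POU3F2 ran opposite to each other at -0.69, and POU3F1 had 0.27 with SALL3 and -0.24 with SALL1. These points share library depth and the sort. Among 15663 genes with a symbol and a mean of at least 1 CPM, those most like SALL1 were DPYSL5 (r = 0.99), PODXL (0.99) and ZNF469 (0.99). Those most like SALL3 were TLCD3B (0.97), NUMBL (0.97) and CAMSAP3 (0.96), which had log2 fold changes of 0.24, 0.31 and 0.25 in batch 1 and -0.62, -0.48 and -0.50 in batch 2. The deviations hold the change within each batch, so like changes follow from this choice of genes. Most like POU3F1 were FSCN1 (0.99), an actin-bundling protein, NOS1AP (0.97) and SRM (0.97), spermidine synthase. For SALL2 they were SCAP (0.99), ZNF445 (0.98) and SNX8 (0.98), and for POU6F1 PLA2G6 (0.97), RGPD5 (0.95) and SCMH1 (0.94). For POU2F1 they were PIK3R5, ZFP62 and TMEM108 (each 0.94), and for POU3F2 TERF1P1 (0.95), NPEPPS (0.92) and SCYL2P1 (0.92), of which TERF1P1 and SCYL2P1 are pseudogenes.

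Genes next to the members were read for shared changes, taking those that overlap a member or lie within 50000 bases of its start. None of the 14 tested neighbours passed over both batches in edgeR or in DESeq2, where 5.83% of all tested genes passed in edgeR. Of the 14, 4 had an unadjusted p under 0.05. Within batch 2 2 of the 14 passed, beside 9.47% of all tested genes. LINC01896, a noncoding gene on the other strand whose own start lies 744 bases upstream of that of SALL3 (chr18:78976555-78979074, GENCODE 44 on GRCh38), fell in batch 2 with a log2 fold change of -0.77 (edgeR adjusted p = 0.0196), on 56 to 255 counts per library. In batch 1 its value was -0.01 (edgeR adjusted p = 0.995), and the difference between the batches did not pass (edgeR adjusted p = 0.212). UTP11, which lies 21973 bases from the start of POU3F1, rose in batch 2 (0.33, edgeR adjusted p = 0.0454). MIR3659HG, 521 bases from that start, had 10 to 30 counts and did not pass.

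Of 11 other SALL and POU genes 6 were tested. None of the 6 passed over both batches in edgeR or in DESeq2, where 5.83% of all tested genes passed in edgeR. Of the 6, 1 (SALL4) had an unadjusted p under 0.05, and their median log2 fold change was 0.01. SALL4 had 211 ± 14.5 CPM in HHH (SD, n = 3) and 274 ± 9.19 CPM in general (SD, n = 3) in batch 2 and fell there with a log2 fold change of -0.38 ± 0.08 (edgeR adjusted p = 0.0119). In batch 1 it was at 218 CPM in both populations. POU5F1 had 619 ± 19.3 CPM in HHH and 503 ± 34.9 CPM in general in batch 2 (SD, n = 3 each), and its 0.30 ± 0.09 there did not pass in edgeR (adjusted p = 0.0538) and did in DESeq2. The remaining tested genes were POU2F2, POU2F3, POU3F4 and POU5F1B, and POU5F1B is a near copy of POU5F1 whose counts are uncertain. POU2F3 had 0.84 ± 0.32 in batch 1 and -0.62 ± 0.29 in batch 2, and its libraries overlapped in both. Its difference between the batches did not pass (-1.46 ± 0.43, edgeR adjusted p = 0.120). POU5F1B was lower in HHH in batch 1 and higher in batch 2 without overlap, as 6.58% of all tested genes were separated. None of the 6 passed for the difference in edgeR, and POU2F3, POU5F1 and POU5F1B did in DESeq2, beside 828 of 23552 genes.

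The NuRD complex and the neural partners of the POU class III factors were followed as lists. Of the 14 NuRD subunits 2 passed over both batches, both lower in HHH, beside 5.83% of all tested genes (3.89% lower). By sign 10 were lower and 4 higher, with a median of -0.09. They were CHD5, the remodelling subunit of neurons (-0.79 ± 0.17, edgeR adjusted p = 0.0111), on 84 to 92 counts in HHH and 157 to 234 in general in batch 2, and MTA3 (-0.31 ± 0.08, edgeR adjusted p = 0.0250). CHD5 passed in all 10 fits without 1 library, and MTA3 lost the call without HHH replicate 1 or 2 or general replicate 2 or 3 of batch 2, with a highest edgeR adjusted p of 0.0953. CHD3, next in order, did not pass (-0.46 ± 0.15, edgeR adjusted p = 0.0910), but did with the replicate block (-0.62, edgeR adjusted p = 0.00239). Within batch 2 CHD3, CHD5, MTA3 and GATAD2B passed, all lower, beside 9.47% of all tested genes (5.65% lower), and within batch 1 none did in edgeR or in DESeq2, with 2 at an unadjusted p under 0.05. CHD4, the abundant remodelling subunit, had -0.10 ± 0.10 over both batches (edgeR adjusted p = 0.589).

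Of the 12 neural partners 9 were tested, and over both batches 5 passed, 1 higher and 4 lower in HHH, beside 5.83% of all tested genes (1.94% higher and 3.89% lower). By sign 6 were lower and 3 higher, with a median of -0.23. DLL1, a Notch ligand, fell (-0.94 ± 0.21, edgeR adjusted p = 0.0175), with 138 to 160 counts in HHH and 227 to 329 in general in batch 2. SOX2, the SOX factor shared by pluripotent and neural cells, fell (-0.26 ± 0.07, edgeR adjusted p = 0.0375), while its relative SOX3 rose (0.41 ± 0.10, edgeR adjusted p = 0.0350). SOX3 was at 36.2 CPM in HHH and 23.0 CPM in general on average in batch 1, and at 16.8 and 14.3 CPM in batch 2. SOX1 (-1.39, edgeR adjusted p = 0.0391) and SOX11 (-0.39, edgeR adjusted p = 0.0390) fell too and are named after their values were seen. With the replicate block SOX2 (edgeR adjusted p = 0.0773) and SOX3 (edgeR adjusted p = 0.0822) did not pass. Leaving out single libraries kept DLL1 in 8 of 10 fits (not without HHH replicate 1 or general replicate 3 of batch 2), SOX3 and SOX11 in 3, and SOX1 and SOX2 in 2. PAX6 and NES, genes of neural progenitors, did not pass over both batches, and NES passed in batch 2, where it was lower in HHH (-0.53, edgeR adjusted p = 0.0239).

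**Figure D4:**
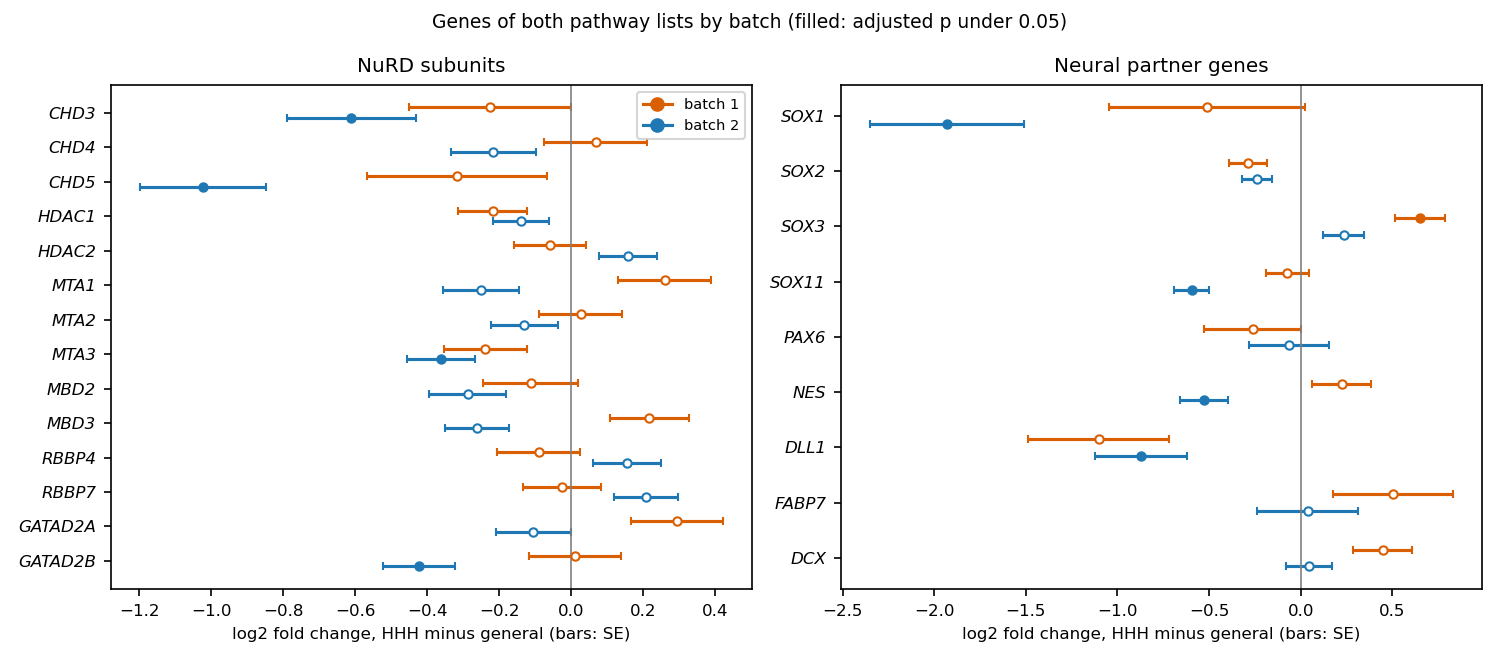
Log2 fold change (horizontal axis, HHH minus general, with SE) of the 14 NuRD subunits and the 9 tested neural partners in batch 1 and batch 2; filled points passed at an adjusted p under 0.05. In batch 2 the 4 NuRD genes that passed were lower in HHH, and in batch 1 SOX3 was the single gene of both lists that passed.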

How the data were processed

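The authors deposited 2 tables. One holds whole fragment counts per Ensembl gene without normalization. The other holds log2 values after TMM scaling and conversion to RPKM, which carry a score here because a batch term had been subtracted before the authors deposited them: for the 27641 genes with counts in all libraries, the batch means agreed to 9.2e-14. The submitters' processing notes name CASAVA 1.8.2, R 3.2.2, limma 3.26.9 and GRCh37. The aligner, the counting tool and the annotation are not given in the sources used here. Populations, batches and replicate numbers were taken from the library titles.

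Identifiers were matched to GENCODE 44 (GRCh38), as 94.0% of the tested genes were, and unmatched ones, which took 7.44% to 20.3% of the counts of a library, stayed in. Genes were kept by filterByExpr (minimum count 10), scaled by TMM and tested with edgeR 4.0.16 in R 4.3.3. A fit with 1 mean per population and batch gave the within-batch changes and their difference, all with a shared spread. A test on simulated data recovered 100.0% of 2-fold changes over both batches and 53.0% of 2-fold differences between batches. It drew libraries independently, with the same spread for all genes, and changed only well-counted genes. These figures do not give the power for the members, as SALL1 and POU3F1 changed 1.43-fold and 1.45-fold over both batches. Alternatives used DESeq2 1.42.0, limma 3.58.1, other scalings and filters, each library left out, the replicate block, and removal of a spline of GC content with 5 degrees of freedom. The GC settings and the block within batches were added after the data had been seen.

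Same-numbered libraries of batch 2 deviated together over the tested genes (r = 0.23, 0.14 and 0.12). The 1 pair of batch 1 (0.10) does not bear on this, since deviations of 2 libraries mirror each other. The main fits did not pair libraries, and the numbers were taken as pairs only in the replicate block. For any 2 libraries of a group the chi-square of the counts was at least 6.35 times its degrees of freedom, so none was a copy. The floor covers counting error only, and the intervals also take in the spread between these libraries. The members and lists were chosen with earlier results of these data known. Named are all members, the tested relatives, the 3 genes of each list with the smallest adjusted p, the neighbours that passed or lie nearest, and the 3 genes most like each member. Other genes of the lists are named where a call or a change of sign, or their levels as markers, brought them up, after their values were seen. A further gene is not reported here.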

Additional observations from a re-analysis of the deposited data

Results flagged for a closer look

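The change of SALL3 in HHH differed between the batches by -1.50 on the log2 scale (batch 2 minus batch 1, edgeR adjusted p = 0.00403). Every HHH library was lower than the general ones in batch 2 and higher in batch 1. Of all tested genes 6.58% were separated in opposite directions in this way. The rise of SALL3 in batch 1 did not pass (0.55 ± 0.15, edgeR adjusted p = 0.0815). The tested neural markers had a median log2 fold change of -2.04 in batch 2 and -1.25 in batch 1. The change of POU3F1 differed by -0.88 (edgeR adjusted p = 0.0456), with the rise present in both HHH libraries of batch 1 and the populations overlapping in batch 2. It did not pass in 9 of the 10 fits without 1 library or under 5 of 8 other settings, among them the replicate block (-0.75, edgeR adjusted p = 0.177). The batches also differ in the share of small and mitochondrial RNA, and with these RNAs left out both differences still passed. The share goes with the batch in these libraries, so its part in the differences cannot be told apart by leaving these RNAs out. The part of the neural markers was not tested.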

How the results depend on the processing

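SALL1 kept its direction under all 23 alternatives over both batches and lost its call only without a batch term (-0.57, edgeR adjusted p = 0.507). Single-library fits gave 1 to 2 members passing over both batches, 1 to 2 in batch 1, 2 in batch 2 and 1 to 2 for the difference between the batches. For all tested genes they gave 808 to 2347 over both batches, 119 to 788 in batch 1, 785 to 2842 in batch 2 and 21 to 222 for the difference. The lowest of these came without HHH replicate 2 of batch 2, general replicate 1 of batch 1, general replicate 3 of batch 2 and general replicate 1 of batch 1, and the highest over both batches and in batch 1 without HHH replicate 3 and general replicate 2 of batch 1.

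Over both batches 0 members passed without a batch term, and 1 with upper quartile scaling, library size only, at least 1 CPM in 5 libraries, or the deposited log2 values, while 3 did, SALL3 among them, with no filter and with the replicate block and GC trend removed. In batch 1, 2 passed with no filter and with DESeq2. For the difference, 1 passed with RLE scaling, library size only, GC trend removed, or the replicate block with or without it. Genes passing over both batches were 168 without a batch term, 2423 with no filter and 2450 with the replicate block and GC trend removed. In batch 1 they were 324 with library size only, 1522 with no filter, 914 with DESeq2 and 136 from batch 1 alone. In batch 2 they were 3568 with no filter, 3682 with the replicate block and 3762 with GC trend removed as well. For the difference they were 1173 with no filter, 828 with DESeq2 and 17 with GC trend removed. Of the genes passing over both batches 33.4% were higher in HHH, 23.3% with library size only and 4.43% with the deposited log2 values, whose median over all genes was -0.12, and in batch 2 40.4% and, with library size only, 18.1%.

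Values not past the threshold changed sign as follows. POU2F1 over both batches became -0.0035 with the replicate block, -0.069 with GC trend removed too and -0.10 with the deposited log2 values, and in batch 2 it became 0.0021 with RLE scaling, 0.0022 with DESeq2 and 0.019 with no filter. POU6F1 for the difference became 0.032 with GC trend removed, 0.19 with the replicate block and 0.25 with both. With the deposited log2 values POU5F1 became -0.0039, POU5F1B -0.051, HDAC2 -0.068, RBBP4 -0.082, RBBP7 -0.027, GATAD2A -0.086 and POU2F3 -0.19. With the replicate block GATAD2A became -0.056 and POU2F3 -0.073 (-0.072 with GC trend removed too). POU2F3 became -0.021 with library size only and -0.011 with DESeq2, and with GC trend removed POU2F2 became 0.018 and MTA1 0.020. Fits without 1 library spanned 0 for POU2F1 in batch 2 (-0.054 to 0.054), POU3F2 in batch 2 (-0.097 to 0.38) and POU6F1 in batch 1 (-0.57 to 0.15) and for the difference (-0.38 to 0.34). Over both batches they did so for POU2F2 (-0.086 to 0.059), POU2F3 (-0.36 to 0.20), MTA1 (-0.14 to 0.034), GATAD2A (-0.022 to 0.13) and FABP7 (-0.050 to 0.37). The cause was not tested. The replicate block changed no call of a member beyond those given for SALL3 and POU3F1. Depth limits POU3F2 and POU3F3.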
